A study of Mus musculus with 2 samples.

Results

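The 10 genes described here handle metals or export drugs. They are the metallothioneins Mt1, Mt2 and Mt3, the metal-responsive factor Mtf1, the zinc exporter Slc30a1, the copper transporters Slc31a1, Atp7a and Atp7b, and the drug exporters Abcc1 and Abcg2. They were chosen by symbol, and all 10 of 10 were found among the 28692 genes of both count tables. Expression was measured by droplet single-cell RNA sequencing of mouse small cell lung cancer, in 1 library from a vehicle group and 1 from a chemotherapy group. Mice of both groups carried CGRPCreER/+, a Cre recombinase driven by the CGRP promoter and so directed at neuroendocrine cells, with floxed Rbf/f, P53f/f and Ptenf/f alleles and the Rosa26mTmG reporter, which turns cells green after recombination. The strain was given as mixed, and the age of the mice and how many contributed to a library are not given in the sources used here. One group received saline and the other 5 mg per kg cisplatin, every 4 days for 2 weeks. The library protocol calls the second group cisplatin/etoposide, so whether etoposide was also given cannot be told from the labels, and the library is called cisplatin below. Live GFP-positive tumour cells were sorted, and 5000 cells per group were loaded.

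Metallothioneins are small cysteine-rich proteins that bind zinc, copper and cadmium and can bind platinum drugs. Zinc activates the transcription factor Mtf1, which binds metal response elements in the promoters of Mt1, Mt2 and Slc30a1. Glucocorticoids and stress signals also induce Mt1 and Mt2. Cisplatin has been linked to copper carriers, with Slc31a1 proposed for entry and Atp7a and Atp7b for sequestration and export, while Abcc1 exports glutathione conjugates and Abcg2 is a broad exporter that marks the side population of many tissues.

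After a filter of at least 500 detected genes and at most 10% mitochondrial UMIs (unique molecular identifiers, each counting 1 captured RNA molecule), 3672 of 3726 vehicle barcodes and 4218 of 4254 cisplatin barcodes were kept, with median depths of 8205.5 and 5940.5 UMIs. At least 3 of 10 neuroendocrine markers were detected in 99.5% of kept cells of each library, although Calca, which encodes CGRP, had only 15 and 11 UMIs in all. The libraries shared 23 cell barcodes. Summed markers of other cells also differed between the libraries, in both directions. Neutrophil markers were at 82.3 CPM (counts of a gene for each 1000000 UMIs of its group of cells) in vehicle and 1.47 in cisplatin. Erythroid markers were at 53.7 and 0.733 CPM. Club cell markers were higher in cisplatin, at 832 CPM in vehicle and 2063 in cisplatin. So were alveolar type 2 markers, at 49.3 and 188, ciliated markers, at 7.24 and 30.9, and hepatocyte markers, at 116 and 387. With 1 library per group no test between groups is possible, and a difference between treatments cannot be told apart from one between tumours, animals or library preparations. Every interval below is an exact 95% interval that covers counting error only.

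Promoter windows from RefSeq (build GRCm38.p6, 250 bases before to 50 after the annotated start) were found for 9 of the 10 genes, in 11 windows. Each was searched on both strands for the metal response element core, TGCACNC or TGCGCNC, and 7 of the 11 windows, each of a different gene, held at least 1 match, beside 25.7% of all 32851 windows. Windows with 3 or more matches made up 1.97% of all windows and included those of Mt1 and Mt2. The 4 windows below, of the metallothioneins and of Slc30a1, are printed 5′ to 3′ on the gene's strand because these genes are known Mtf1 targets or relatives of them, with each core match in capitals (a match on the other strand reads GNGTGCA or GNGCGCA).
Mt1: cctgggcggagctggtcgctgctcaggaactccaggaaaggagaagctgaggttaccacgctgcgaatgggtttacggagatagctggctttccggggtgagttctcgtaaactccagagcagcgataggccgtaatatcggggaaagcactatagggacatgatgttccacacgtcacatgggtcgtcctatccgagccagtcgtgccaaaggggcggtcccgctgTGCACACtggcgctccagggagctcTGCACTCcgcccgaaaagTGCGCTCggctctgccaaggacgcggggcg
Mt2: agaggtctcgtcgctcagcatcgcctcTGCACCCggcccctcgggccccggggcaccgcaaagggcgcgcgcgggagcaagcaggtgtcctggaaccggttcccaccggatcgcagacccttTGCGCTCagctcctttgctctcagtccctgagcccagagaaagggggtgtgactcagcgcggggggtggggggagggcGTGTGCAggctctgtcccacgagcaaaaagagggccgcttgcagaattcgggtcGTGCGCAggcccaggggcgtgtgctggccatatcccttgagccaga
Mt3: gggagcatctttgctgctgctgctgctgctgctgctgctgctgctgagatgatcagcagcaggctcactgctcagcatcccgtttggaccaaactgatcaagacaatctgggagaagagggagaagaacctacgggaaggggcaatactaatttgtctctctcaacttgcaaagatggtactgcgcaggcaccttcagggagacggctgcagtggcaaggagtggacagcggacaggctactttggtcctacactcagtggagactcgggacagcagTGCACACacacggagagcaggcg
Slc30a1: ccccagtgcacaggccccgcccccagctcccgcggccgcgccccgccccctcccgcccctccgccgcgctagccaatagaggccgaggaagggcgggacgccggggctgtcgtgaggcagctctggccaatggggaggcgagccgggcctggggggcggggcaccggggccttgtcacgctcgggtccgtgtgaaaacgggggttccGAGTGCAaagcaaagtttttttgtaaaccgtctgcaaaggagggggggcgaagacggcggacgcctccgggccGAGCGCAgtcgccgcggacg
The Mt1 window (chr8:94178839-94179138, plus strand) held 3 matches, all on the gene's strand and first met at base -23 from the annotated start. The annotation gives Mt1 further starts at 94179211 and 94179241, so the bases just upstream of those starts are not in the window. The Mt2 window (chr8:94172368-94172667, plus strand) held 4 matches, 2 on each strand. The Mt3 window (chr8:94152357-94152656, plus strand) held 1 match and the Slc30a1 window (chr1:191906531-191906830, plus strand) held 2, both on the other strand. Mt2 has a further annotated start at 94172860 and Mt3 at 94152746, so the bases just upstream of those starts are not in the windows either. A match is a description of letters and was not tested as a binding site.

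The first comparison asked how the 10 genes differed between the cisplatin and the vehicle tumours. Mt1, Mt2 and Abcg2 were higher in the cisplatin library, Atp7a and Abcc1 were lower, and Mt3, Mtf1, Slc30a1, Slc31a1 and Atp7b stayed within 1.5-fold. A gene was called at a CPM ratio of at least 1.5 in either direction, among genes with at least 50 UMIs over both libraries. All 10 genes passed that minimum, of which 3 were called higher, against 8.09% of 13446 genes, and 2 lower, against 21.7% (5 in either direction, against 29.7%). The median log2 ratio was 0.06 over the 10 genes and -0.16 over all measured genes (1 CPM added). Scaling by TMM, a factor that centres most genes, moved the median of all genes by 0.14 to -0.02 and the share of higher among called genes from 27.2% to 45.2%, and called the same 5 of the 10 genes in the same directions.

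**Figure D1:**
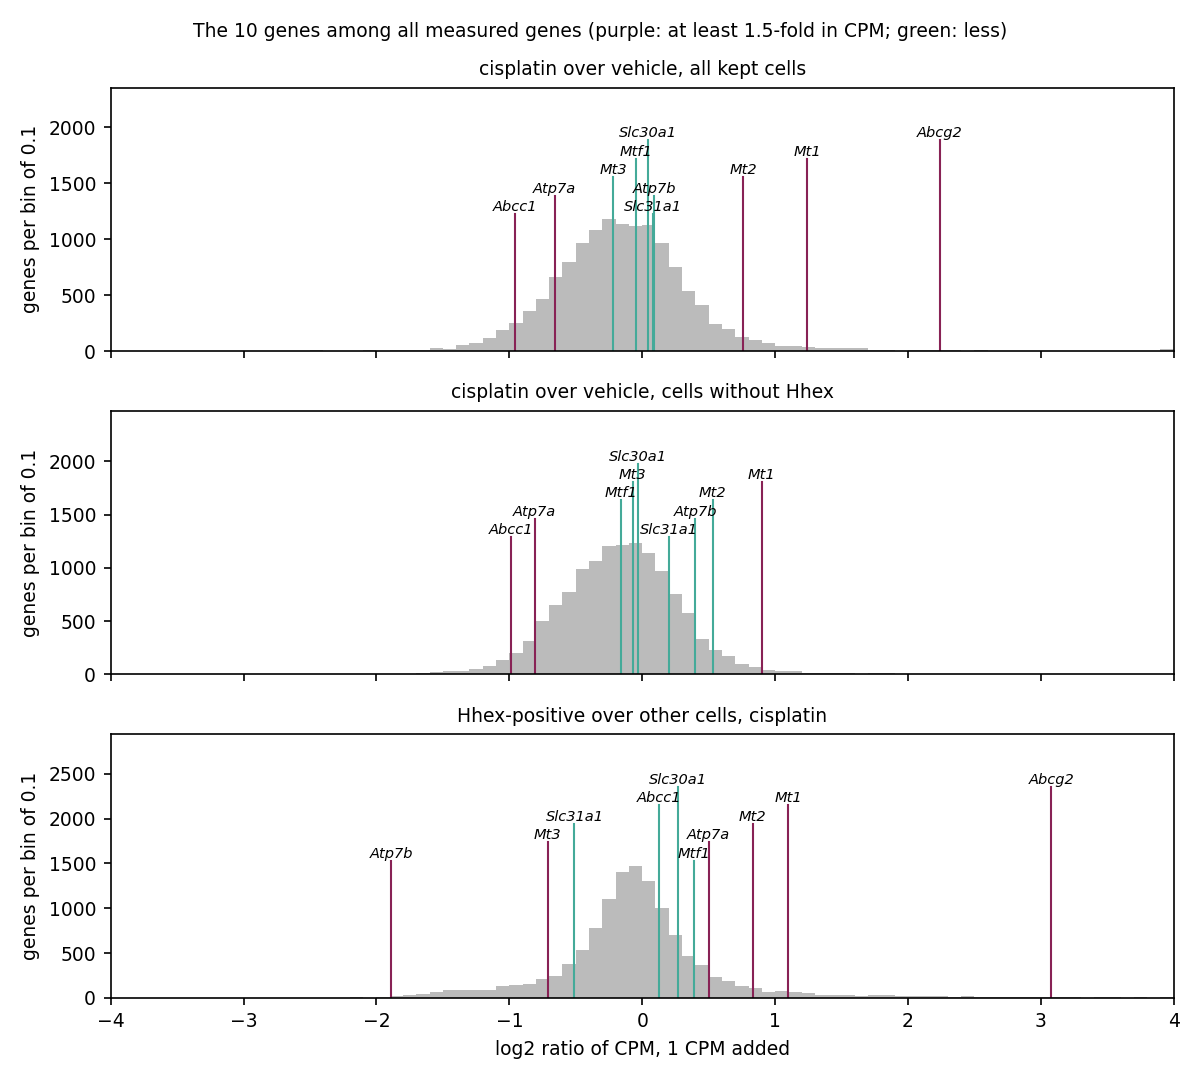
Histograms of the log2 CPM ratio (horizontal axis, 1 CPM added) over all measured genes (vertical axis, genes per bin of 0.1), with lines for the 10 genes, purple where the CPM ratio reached 1.5-fold. From top to bottom the panels show cisplatin over vehicle in all cells, the same without Hhex-positive cells, and Hhex-positive over other cells of the cisplatin library, where Abcg2 and Atp7b lie farthest to either side among the 10.

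Mt1 (ENSMUSG00000031765, chr8:94179082-94180327) and Mt2 (ENSMUSG00000031762, chr8:94172664-94173568) encode the 2 widely expressed metallothioneins and lie 5513 bases apart on the plus strand of mm10. Mt1 stood at 1913 CPM (1897 to 1929) in cisplatin, beside 807 CPM (797 to 817) in vehicle, a 2.37-fold higher level (2.34 to 2.41). Mt2 stood at 1370.2 CPM (1357 to 1384) in cisplatin, beside 806 CPM (797 to 816) in vehicle, 1.70-fold higher (1.67 to 1.73). Together the pair made up 0.161% of all UMIs in vehicle and 0.328% in cisplatin. Mt3 (ENSMUSG00000031760, chr8:94152607-94154146), the form known from neurons, lies 18517 bases upstream of Mt2 and did not share this difference. Its levels were 494 CPM (487 to 502) in the vehicle and 424 CPM (417 to 432) in the cisplatin library, a ratio of 0.859 (0.839 to 0.879). The longest stretch shared by the annotated transcripts was 20 bases between Mt1 and Mt2, 27 between Mt1 and Mt3 and 20 between Mt2 and Mt3.

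In cisplatin Mt1 and Mt2 were seen in a larger share of cells and had a higher variance over mean, beside higher means. For Mt3 these values were close in both libraries. To compare cells at 1 depth, each was thinned to 3000 UMIs, which left out 146 vehicle and 361 cisplatin cells that were shallower. At that depth Mt1 UMIs were seen in 64.9% (63.3 to 66.4) of the vehicle and 84.1% of the cisplatin cells, beside 82.6% and 93.2% before thinning. For Mt2 the thinned shares were 66.8% and 78.5%, and for Mt3 66.1% and 62.4%. The variance of thinned UMIs over their mean, which is 1 for random sampling of equal cells, was 7.94 for Mt1 in vehicle and 16.0 in cisplatin, and 5.18 and 9.56 for Mt2. For Mt3 it was 2.07 and 2.09, nearly the same in both libraries. Where cells differ, this measure also rises with the mean, so it cannot separate a wider relative spread from a higher mean. The thinned means in vehicle and cisplatin were 2.37 and 5.83 for Mt1, 2.38 and 4.11 for Mt2, and 1.51 and 1.41 for Mt3. The tenth of cells with most Mt1 held 49.4% of its thinned UMIs in vehicle and 48.9% in cisplatin, so the Mt1 UMIs were about equally concentrated. A background was gauged in barcodes with at least 3 markers of an immune cell type. Free RNA and doublets with a tumour cell cannot be told apart there. In the 17 such vehicle barcodes (median 3380 UMIs), 9 or 52.9% had a UMI of Mt3, a gene immune cells should lack, at 217 CPM. The same barcodes held Mt1 in 8 and Mt2 in 13, genes that immune cells do express, so a share of cells with a metallothionein UMI cannot be read as a share of expressing cells.

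**Figure D2:**
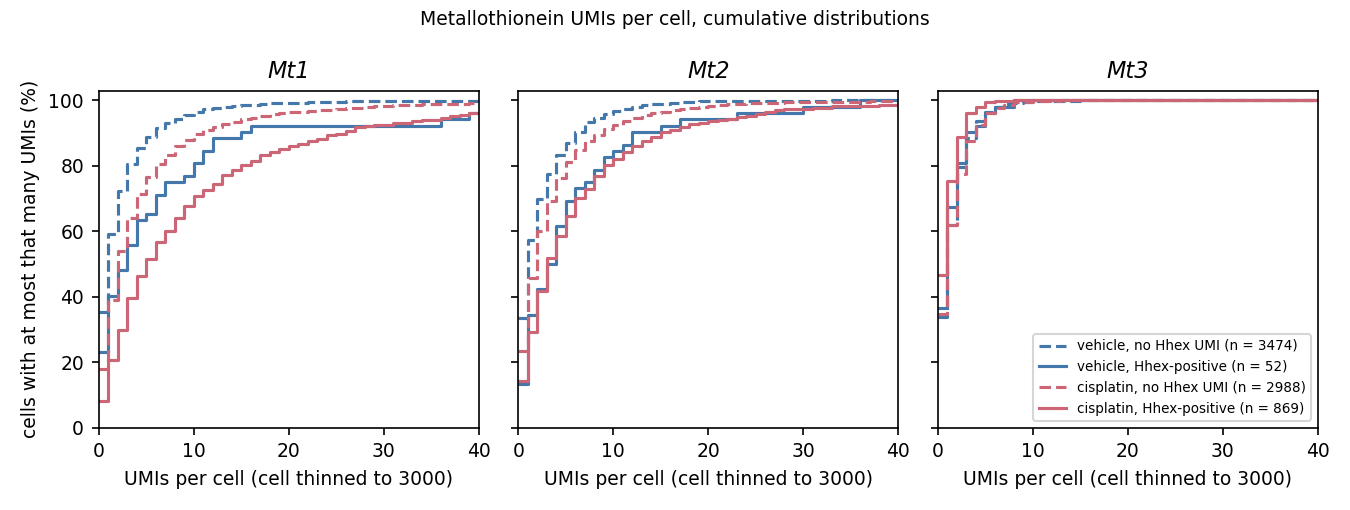
Cumulative share of cells (vertical axis, %) with at most a given number of Mt1, Mt2 or Mt3 UMIs (horizontal axis), each cell thinned to 3000 UMIs, in Hhex-positive (solid) and other cells (dashed) of the vehicle (blue) and cisplatin (red) libraries. The Mt1 curve of cisplatin Hhex-positive cells lies farthest right, with 32.2% of those cells at 10 or more UMIs, while the Mt3 curve of those cells lies left of the other cisplatin cells, with 53.4% against 65.1% of cells holding a UMI.

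Mtf1 and its classical target Slc30a1 did not differ between libraries as Mt1 and Mt2 did. Mtf1 (ENSMUSG00000028890, chr4:124802104-124849800, plus strand) had 24.7 CPM (23.0 to 26.5) in vehicle and 23.9 CPM (22.1 to 25.7) in cisplatin, a ratio of 0.966 (0.871 to 1.07). Slc30a1 (ENSMUSG00000037434, chr1:191906767-191913247, plus strand), the zinc exporter of the plasma membrane, had 4.46 CPM (3.76 to 5.25) and 4.60 CPM (3.85 to 5.46), a ratio of 1.03 (0.809 to 1.32). The interval for Slc30a1 covers ratios up to 1.32, so a 2-fold difference between these libraries lies outside it. An opposite-strand gene overlaps Mtf1 (1110065P20Rik), Slc30a1 (1700034H15Rik) and Slc31a1 (Cdc26). Whether counting used strand is not given in the sources used here, so reads of these pairs may not be separable.

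Among the copper transporters only Atp7a was called. Slc31a1 (ENSMUSG00000066150, chr4:62360727-62391769, plus strand), the high-affinity copper importer, had 31.0 CPM (29.1 to 33.0) in vehicle and 32.9 CPM (30.8 to 35.0) in cisplatin, a ratio of 1.06 (0.968 to 1.16). Atp7a (ENSMUSG00000033792, chrX:106027276-106124926, plus strand), the copper pump mutated in Menkes disease, had 214 UMIs or 6.62 CPM (5.77 to 7.57) in vehicle and 110 UMIs or 3.84 CPM (3.15 to 4.63) in cisplatin. That is 1.73-fold lower, a ratio of 0.579 (0.456 to 0.732), but among cells with fewer than 2 mitotic UMIs the ratio was 0.711 and no longer passed 1.5-fold. Atp7b (ENSMUSG00000006567, chr8:21992785-22060305, minus strand), the copper pump mutated in Wilson disease, had 8.98 CPM (7.97 to 10.1) and 9.63 CPM (8.53 to 10.8), a ratio of 1.07 (0.906 to 1.27). At 3000 UMIs, 2.04% of vehicle cells and 0.959% of cisplatin cells had an Atp7a UMI, against 2.95% and 2.83% for Atp7b.

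The exporters went in opposite directions. Abcc1 (ENSMUSG00000023088, chr16:14361558-14475737, plus strand), also known as MRP1, had 315 UMIs or 9.75 CPM (8.70 to 10.9) in vehicle and 130 UMIs or 4.54 CPM (3.79 to 5.38) in cisplatin, 2.15-fold lower at a ratio of 0.465 (0.376 to 0.572). Abcg2 (ENSMUSG00000029802, chr6:58584523-58695676, plus strand), also known as BCRP, had 16 UMIs or 0.495 CPM (0.283 to 0.804) in vehicle and 174 UMIs or 6.07 CPM (5.20 to 7.04) in cisplatin, a ratio of 12.3 (7.34 to 21.9). The size of the Abcg2 ratio rests on the few vehicle UMIs. It was 7.57 where each cell weighed alike and 4.73 with 1 CPM added to both levels. Even in cisplatin Abcg2 was seen in few cells, at most 4 UMIs per cell and in 1.35% of cells at 3000 UMIs, against 0.199% in vehicle.

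The second comparison set cells with at least 1 UMI of Hhex, a homeobox transcription factor, against the other cells of the same library. There were 911 Hhex-positive cells in cisplatin, 21.6% of the kept cells (20.4 to 22.9), and 52 in vehicle, 1.42% (1.06 to 1.85). They were deeper than the rest, with medians of 7924 against 5526 UMIs in cisplatin and 11346.5 against 8177 in vehicle. Hhex-positive cisplatin cells had more Pnoc (502 against 43.9 CPM), Isl1 (163 against 7.75 CPM) and Chga (1626 against 368 CPM). They also had more club cell marker UMIs, 6374 against 462 CPM over 4 of 4 detected genes, of which Scgb1a1 gave 6193 against 448 CPM, and more of the alveolar type 2 markers, at 575 against 44.1 CPM with Slc34a2 at 0 in the Hhex-positive cells.

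In the cisplatin library Hhex-positive cells had more Mt1, Mt2, Abcg2 and Atp7a and less Mt3 and Atp7b than the other cells. All 10 genes had at least 50 UMIs there, and 4 were called higher, against 10.2% of 12219 genes, and 2 lower, against 13.9% (6 in either direction, against 24.1%). The median log2 ratio was 0.33 over the 10 genes and -0.07 over all measured genes. Mt1 was at 3129 CPM (3090.1 to 3169) in Hhex-positive cells and 1461 CPM (1444 to 1477) in the others, a ratio of 2.14 (2.11 to 2.18). Mt2 was at 2011 CPM (1979 to 2043) against 1132 CPM (1118 to 1147), a ratio of 1.78 (1.74 to 1.81). Mt3 was at 290.4 CPM (279 to 303) against 474 CPM (465 to 484), 1.63-fold lower. As a group, the Hhex-positive cells were thus lower in the neuronal metallothionein and higher in Mt1 and Mt2. This did not hold cell by cell. Across 869 thinned Hhex-positive cells, the log level of Mt3 had a Pearson correlation of 0.05 with Mt1 and 0.06 with Mt2.

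Abcg2 showed the widest gap of the 10 genes in the cisplatin library. It had 146 UMIs or 18.8 CPM (15.9 to 22.1) in Hhex-positive cells and 28 UMIs or 1.34 CPM (0.890 to 1.94) in the others, a ratio of 14.0 (9.33 to 21.9). At 3000 UMIs it was seen in 48 of 869 Hhex-positive cells, 5.52%, and in 4 of 2988 others, 0.134%. Of the 152 cisplatin cells with an Abcg2 UMI, 125 or 82.2% (75.2 to 88.0) also had a Hhex UMI. Of the other 27, 15 had a UMI of Pnoc or Isl1, against 13.9% of all Hhex-negative cells. Where the other cells were restricted to those with no UMI of Hhex, Pnoc or Isl1, the Abcg2 ratio was 27.3.

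The copper pumps lay on opposite sides of this split. Atp7b had 20 UMIs or 2.58 CPM (1.57 to 3.98) in Hhex-positive cells and 256 UMIs or 12.2 CPM (10.8 to 13.8) in the others, 4.75-fold lower at a ratio of 0.210 (0.126 to 0.332). The Atp7b gap widened with the Hhex rule, to a ratio of 0.0781 with at least 2 Hhex UMIs and 0.0680 in cells with UMIs of Hhex, Pnoc and Isl1 each. Atp7a, called higher, was at 5.15 CPM (3.68 to 7.02) against 3.35 CPM (2.61 to 4.23), a ratio of 1.54 whose interval of 1.02 to 2.30 reaches close to 1. Slc31a1 was at 24.9 CPM (21.5 to 28.6) against 35.8 CPM (33.3 to 38.5), a ratio of 0.694 (0.589 to 0.814) that passed 1.5-fold at 0.628 among cells with fewer than 2 mitotic UMIs and at 0.596 under the strictest Hhex rule. The remaining members stayed within 1.5-fold, Mtf1 at a ratio of 1.33 (1.13 to 1.56), Slc30a1 at 1.26 (0.850 to 1.83) and Abcc1 at 1.11 (0.742 to 1.64).

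**Figure D3:**
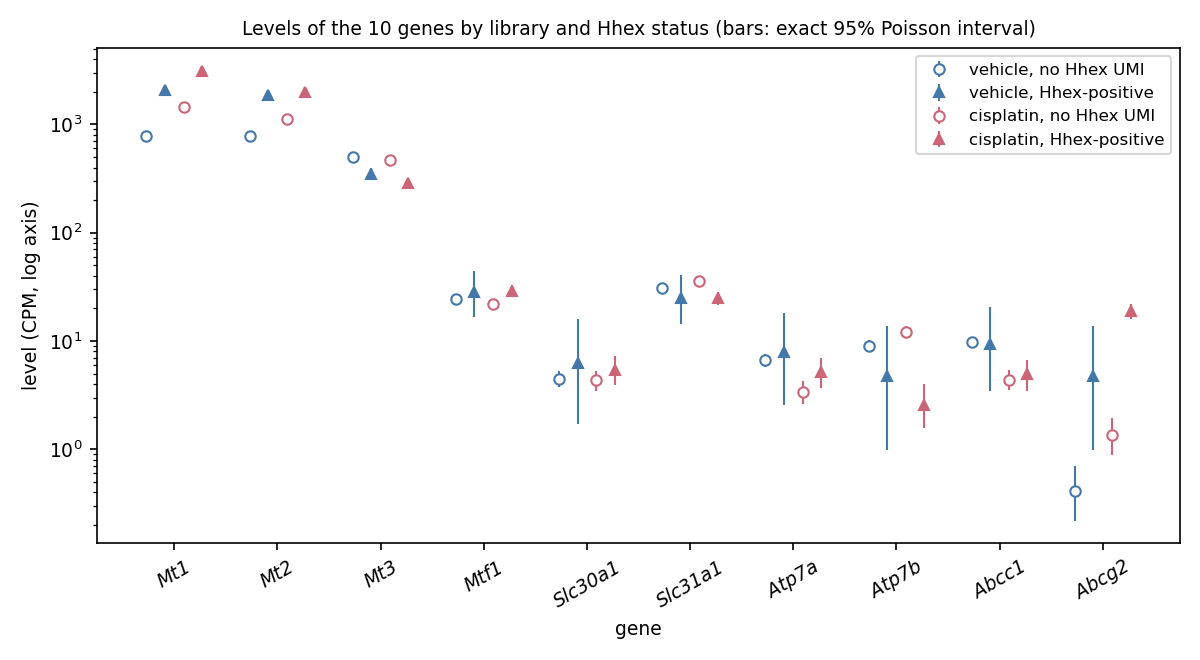
Levels of the 10 genes (vertical axis, CPM on a log scale) in Hhex-positive cells (triangles) and cells with no Hhex UMI (circles) of the vehicle (blue) and cisplatin (red) libraries, with exact 95% Poisson intervals as bars. The cisplatin Hhex-positive point of Abcg2, at 18.8 CPM, stands above the other 3 and that of Atp7b, at 2.58 CPM, below the circles.

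The differences were followed along the number of Hhex UMIs per cell, in classes of 0, 1, 2 or 3, and 4 or more UMIs holding 3307, 330, 240 and 341 cisplatin cells. Mt1 stood at 1461, 2448, 3676 and 3333 CPM across these classes and Mt2 at 1132, 1575, 2269 and 2195 CPM. Abcg2 stood at 1.34, 9.08, 24.4 and 23.0 CPM. For all 3 genes the single-UMI class lay between the cells without Hhex and the classes above it. Mt3 stood at 474, 331, 300.3 and 253 CPM and Atp7b at 12.2, 5.92, 1.56 and 0.606 CPM, each lower in every next class. Median depth was also higher in each next class, at 5526, 6985, 7425.5 and 9151 UMIs, so the Hhex-positive and the other cells were each also split by depth into 4 groups of equal size. Mt1 then ranged from 2551 to 3912 CPM in the 4 depth groups of cisplatin Hhex-positive cells and from 1256 to 1743 CPM in those of the other cells. Abcg2 ranged from 15.4 to 20.3 CPM against 1.01 to 1.65 CPM, and Atp7b from 1.55 to 5.32 CPM against 9.25 to 21.0 CPM. Mt3 ranged from 249 to 343 CPM against 354 to 684 CPM. The depth groups were cut within each kind of cell and so were not matched in depth. The shallowest group spanned 1964 to 5536 UMIs in Hhex-positive and 1892 to 4072 UMIs in other cells. How many of all genes have ranges that stay apart in this way was not counted.

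**Figure D4:**
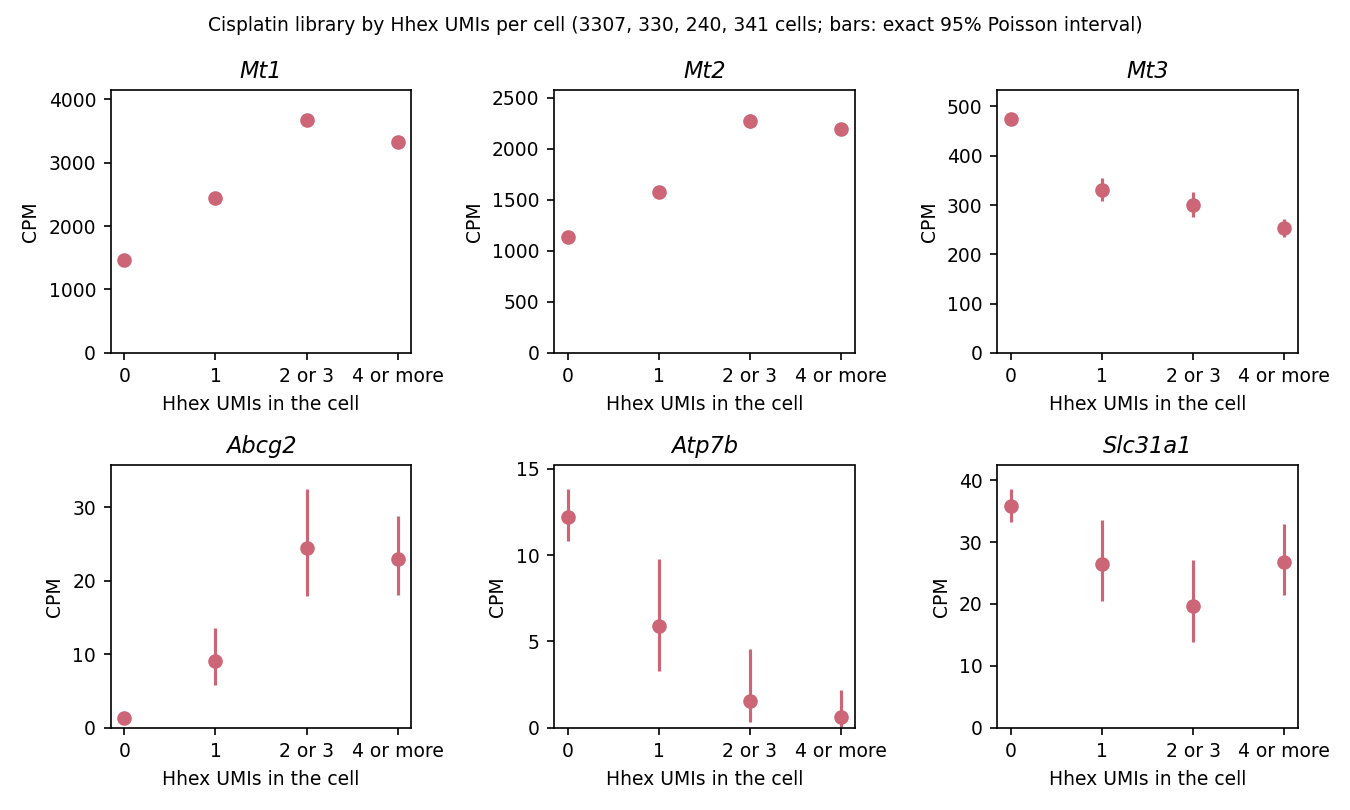
Levels of 6 genes (vertical axes, CPM, starting at 0) in cisplatin cells with 0, 1, 2 or 3, and 4 or more Hhex UMIs (horizontal axes), with exact 95% Poisson intervals. Mt1, Mt2 and Abcg2 are lowest in cells with 0 Hhex UMIs, while Mt3 and Atp7b are highest there.

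Because Scgb1a1 was so much higher in the Hhex-positive cells, the split was repeated in cells with at most 2 Scgb1a1 UMIs, 457 Hhex-positive cells (50.2%) and 2064 others (62.4%). The ratios there were 2.25 for Mt1, 1.90 for Mt2, 0.574 for Mt3, 0.268 for Atp7b and 17.0 for Abcg2, these 5 on the same side of 1.5-fold as in all cells. Atp7a had a ratio of 1.76, on 16 UMIs in Hhex-positive and 33 in other cells. That is under the minimum of 50 UMIs, so it was not called there. Mtf1, Slc31a1 and Abcc1 stayed within 1.5-fold. Slc30a1, at 1.26 in all cells, turned to 0.690 there, on 11 UMIs in Hhex-positive and 58 in other cells.

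In the vehicle library, with only 52 Hhex-positive cells, 9 of the 10 genes were measured, all but Abcg2. Of these, 2 were called higher, against 12.5% of 12514 genes, and 1 lower, against 15.2% (3 in either direction, against 27.7%). Mt1 was at 2068 CPM (1958 to 2183) in the Hhex-positive cells and 781 CPM (772 to 791) in the others, a ratio of 2.65 (2.50 to 2.80). Mt2 was at 1873 CPM (1768 to 1983) against 785 CPM (775 to 795), a ratio of 2.39 (2.25 to 2.53). These ratios rested largely on 17 of the 52 cells. In the 35 cells with 1 Hhex UMI, Mt1 was at 1055 CPM (959.5 to 1157), above the 781 CPM of the cells without Hhex. Mt2 was at 837 CPM (753 to 929) in these 35 cells, close to the 785 CPM of the cells without Hhex. Abcg2, Pnoc, Isl1 and Ceacam10 had 0 UMIs in the 35 cells. In the 4 cells with 2 or 3 Hhex UMIs, Mt1 was at 6072 CPM and Mt2 at 5274 CPM, and in the 13 with 4 or more at 3366 and 3480.1 CPM. Mt3 was at 349 CPM (305 to 398) against 497 CPM (489 to 505), a ratio of 0.702 that stayed within 1.5-fold. The 1 gene called lower was Atp7b, on 3 UMIs in the Hhex-positive cells, with a ratio of 0.520 (0.107 to 1.54) whose interval includes 1. Abcg2 also had 3 UMIs there, 4.71 CPM against 0.410 CPM, a ratio of 11.5 with a counting interval of 2.10 to 41.8. Endothelial marker UMIs stood at 61.3 CPM in these 52 cells and 5.94 CPM in the others, with 5 of 5 genes detected. Without the 4 barcodes that carried at least 3 markers of another cell type, the other 48 cells still held all 3 Abcg2 UMIs. They stood at 2115 CPM for Mt1 and 1887 CPM for Mt2. Only 1 of the 4 removed barcodes was marked as endothelial. How much endothelial marker RNA remained in the 48 cells was not tested.

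The share of Hhex-positive cells differed between the libraries, so the first comparison was repeated in cells with no Hhex UMI. Mt1 remained called higher and Atp7a and Abcc1 lower. With 9 genes measured, 1 was called higher, against 5.69% of 13129 genes, and 2 lower, against 20.7% (3 in either direction, against 26.4%). For Mt1 the levels were 781 CPM (vehicle) and 1461 CPM (cisplatin), a ratio of 1.87 (1.84 to 1.90). Mt2 was at 785 and 1132 CPM, a ratio of 1.44 (1.42 to 1.47) just under the 1.5-fold rule, and passed it at 1.61 with TMM scaling. Mt3 had a ratio of 0.954 (0.930 to 0.978). Atp7a was 1.97-fold lower at a ratio of 0.507 (0.381 to 0.668), and Abcc1 was 2.22-fold lower at 0.451 (0.353 to 0.571). Atp7b was at 9.06 and 12.2 CPM, a ratio of 1.35 (1.14 to 1.60), which became 1.51 with TMM scaling. Abcg2 had 13 UMIs in vehicle and 28 in cisplatin, under the minimum, with a ratio of 3.26 (1.64 to 6.86). In cells with no UMI of Hhex, Pnoc or Isl1 it had 13 and 12 UMIs, 0.411 and 0.689 CPM, a ratio of 1.68. Thus 12 of the 174 cisplatin Abcg2 UMIs came from cells without these markers.

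The balance of Mt1 to Mt2 differed between the libraries too. These ratios of UMIs are compared only between groups of cells, since levels of different genes were not scaled by length. Mt1 UMIs per Mt2 UMI were 1.00 (0.983 to 1.02) in vehicle and 1.40 (1.38 to 1.41) in cisplatin. In cells without Hhex they were 0.995 (0.978 to 1.01) and 1.29 (1.27 to 1.31), and in Hhex-positive cells 1.10 (1.02 to 1.20) and 1.56 (1.53 to 1.59). Relative to Mt2, Mt1 was thus higher in the cisplatin library in both kinds of cells. Across thinned cells the log levels of Mt1 and Mt2 had a Pearson correlation of 0.57 over 3526 vehicle cells and 0.66 over 3857 cisplatin cells. Those of Mt1 and Mt3 had 0.00 and 0.02, in the same cells and at the same depth.

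The genes whose level over cells was most like that of each metallothionein were listed as a description. All cells of a library share its preparation and depth range, and these values were not thinned. In vehicle the 5 genes most like Mt1, of 10291 genes over 3672 cells, were Mt2 at a Pearson correlation of 0.64, Nupr1 at 0.24, Ddit3 at 0.23, Sepw1 at 0.19 and Atf5 at 0.17. In cisplatin, of 9309 genes over 4218 cells, they were Mt2 at 0.67, Ceacam10 at 0.32, Pcsk2 at 0.31, Scg2 at 0.31 and Gfra4 at 0.30. Nupr1, Ddit3 and Atf5 belong to the integrated stress response, whereas Pcsk2 and Scg2 encode proteins of secretory granules. For Mt2 the list after Mt1 was Ptma at 0.19, Hmgn2 at 0.18, Sepw1 at 0.17 and Tuba1b at 0.16 in vehicle, and Ceacam10 at 0.25 and Gfra4, Pcsk2 and Cited1 each at 0.23 in cisplatin. Mt3 had other neighbours, led by Atp5e at 0.39, Nnat at 0.38, Rpl41 at 0.36, Tmem158 at 0.32 and Uqcr11 at 0.31 in vehicle, and by Ly6h at 0.33, Nnat at 0.32, Krt7 at 0.31, Tmem158 at 0.31 and Aldoa at 0.28 in cisplatin. Ceacam10 itself was at 1272 CPM in Hhex-positive and 91.7 CPM in other cisplatin cells.

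Within each library the genes were also set against cell states defined by other genes. Mt3 was lower in mitotic cells, defined by at least 2 UMIs over 10 mitotic genes, in both libraries. It stood at 418 CPM in 1802 mitotic and 605 CPM in 1870 other vehicle cells, a ratio of 0.692 (0.671 to 0.714), and at 289.9 against 587 CPM in cisplatin, a ratio of 0.494 (0.476 to 0.512). Mt1 was at 813 against 797 CPM in vehicle and 1686 against 2187 CPM in cisplatin, ratios of 1.02 and 0.771. Atp7b was also lower in mitotic cells, at a ratio of 0.490 (0.385 to 0.623) in vehicle and 0.636 (0.497 to 0.812) in cisplatin. In the Hhex-positive cells of cisplatin, on 14 and 6 UMIs, its ratio was 1.48 (0.536 to 4.71). The mitotic cells were deeper, with median depths of 9945.5 against 7100.5 UMIs in vehicle and 7927 against 4972 in cisplatin. The part of depth in these ratios was not tested. Atp7b itself was lower in each deeper of the 4 depth groups of cells without Hhex. From shallowest to deepest it stood at 21.5, 11.6, 6.53 and 6.15 CPM in vehicle. In cisplatin it stood at 21.0, 14.7, 11.2 and 9.25 CPM.

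In cells with at least 3 UMIs over the 4 stress genes Ddit3, Trib3, Nupr1 and Chac1, Mt1 was higher and Mt3 lower. Mt1 stood at 1113 CPM in 1115 such vehicle cells and 619.9 CPM in the other 2557, a ratio of 1.80 (1.75 to 1.84). In cisplatin it stood at 2164 against 1719 CPM, a ratio of 1.26 (1.24 to 1.28). Mt2 hardly differed, with ratios of 1.12 (1.10 to 1.15) and 1.05 (1.03 to 1.07). Mt3 had ratios of 0.565 (0.545 to 0.586) and 0.591 (0.569 to 0.614), and Atp7b of 0.572 and 0.639. In the Hhex-positive cells of cisplatin, on 13 and 7 UMIs, the Atp7b ratio was 1.70 (0.631 to 5.04). The stress cells, too, were deeper, at medians of 9779 against 7599 UMIs in vehicle and 7515 against 5378 in cisplatin. Cells with at least 3 UMIs over 4 interferon genes numbered 263 in vehicle and 339 in cisplatin and were also deeper, at medians of 9963 against 8113 and 7929 against 5839 UMIs. Mt1 had ratios of 1.32 (1.27 to 1.37) in vehicle and 1.14 (1.11 to 1.17) in cisplatin, and Mt3 of 0.857 (0.809 to 0.908) and 0.744 (0.695 to 0.796). Slc31a1 had ratios of 1.28 (1.05 to 1.56) and 1.31 (1.07 to 1.58), but 0.834 (0.497 to 1.33) in the Hhex-positive cells of the cisplatin library. Atp7b, on 19 and 16 UMIs in the interferon cells, had ratios of 0.693 (0.411 to 1.10) and 0.551 (0.310 to 0.911).

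Other genes of metal and drug handling were read from 8 lists, beside all measured genes, of which 8.09% were called higher and 21.7% lower in cisplatin, with a median log2 ratio of -0.16. Counts were also taken relative to that median, which calls 12.0% of all genes higher and 14.0% lower. Of 10 zinc exporters, 7 were measured and 1 was called higher, Slc30a3, which loads zinc into synaptic vesicles, at 2.34 against 1.33 CPM. Of 14 zinc importers, 11 were measured, 1 was higher and 3 lower, a lower share near that of all genes, with a median of -0.48. Relative to the median of all genes 1 was higher and 2 were lower, without Slc39a4. The higher one was Slc39a1, at 48.7 CPM in cisplatin and 22.0 CPM in vehicle. The lower ones were Slc39a4 (6.45 against 10.5 CPM), Slc39a8 (4.33 against 7.71 CPM) and Slc39a10 (16.0 against 31.0 CPM). Of the 11 copper genes all were measured, and besides Atp7a only Cox17, the copper chaperone of mitochondria, was called, at 584 against 367 CPM. Atox1, which hands copper to Atp7a and Atp7b, was within 1.5-fold at 247 against 201 CPM, and so was Sod1 at 132 against 170.5 CPM.

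Of 8 other carriers linked to platinum uptake, 5 were measured. Lrrc8a, the obligatory subunit of the volume-regulated anion channel, was higher at 25.8 against 8.64 CPM, a ratio of 2.99, and the partner subunit Lrrc8b was lower at 10.9 against 17.3 CPM, but not relative to the median of all genes. Of 10 exporters linked to drug efflux, 5 were measured and only Abcg2 and Abcc1 were called. Abcc3 was at 9.42 against 8.20 CPM between libraries, but at 21.0 CPM in Hhex-positive and 5.12 CPM in other cisplatin cells, a ratio of 4.10. Of 8 glucocorticoid-responsive genes, all measured, 2 were called higher and none lower, with a median of 0.41: Dusp1 at 785 against 446 CPM and Errfi1 at 101 against 56.9 CPM. Tsc22d3, a classical glucocorticoid target, was at 102 against 69.6 CPM and so just under the rule. Relative to the median of all genes 5 of the 8 were higher, those 3 with Sgk1 and Klf9. Of 8 oxidative stress genes controlled by NRF2, 7 were measured and 0 were called, on either count and against 29.7% of all genes in either direction, Hmox1 at 20.1 against 16.9 CPM and Txnrd1 at 65.3 against 96.7 CPM. Hmox1 was at 32.2 CPM in Hhex-positive and 15.6 CPM in other cisplatin cells, and Slc7a11 at 2.58 against 7.89 CPM. Mt4, the remaining metallothionein, had 0 UMIs in both libraries.

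**Figure D5:**
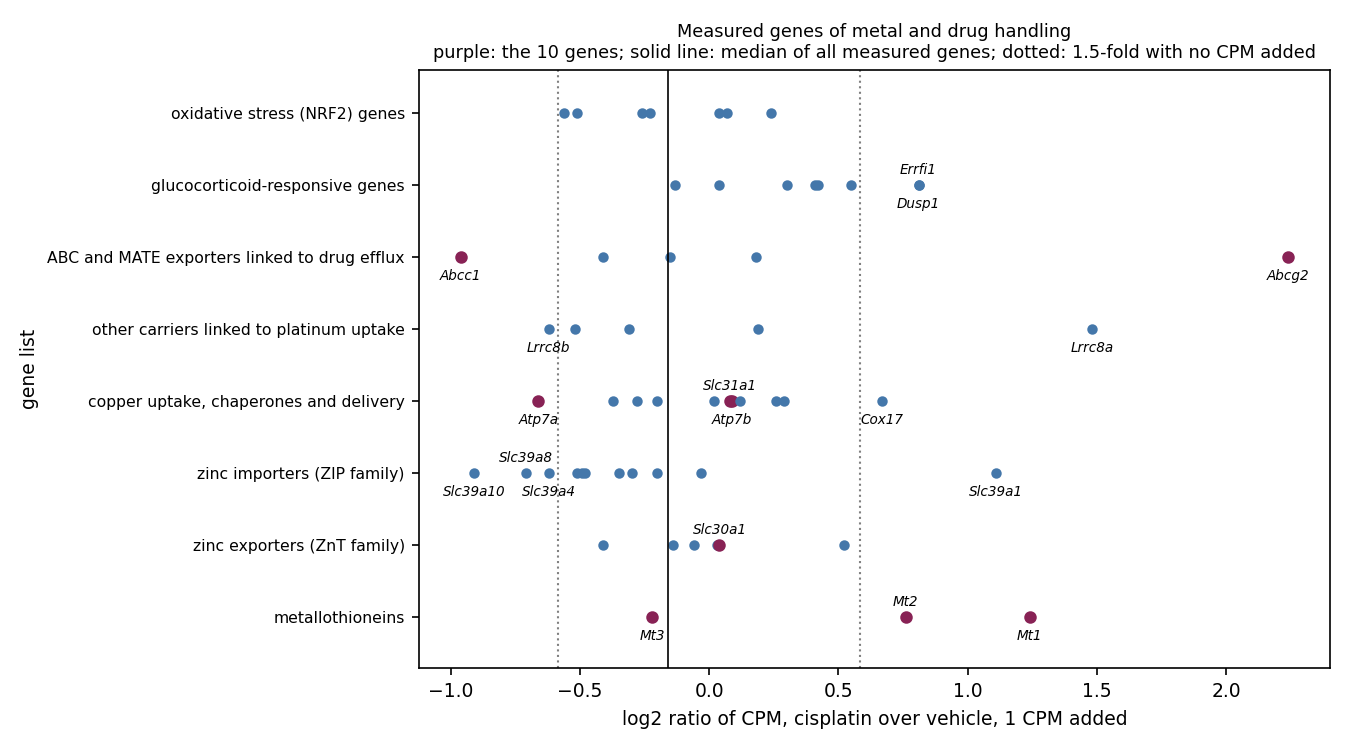
Log2 CPM ratio of cisplatin over vehicle (horizontal axis, 1 CPM added) for each measured gene of 8 lists (rows), with the 10 genes other than Mtf1, which is on no list, in purple, the median of all measured genes (-0.16) as a solid line and 1.5-fold as dotted lines. The added CPM draws low genes such as Slc30a3 inside the dotted lines, and Abcg2, Lrrc8a and Mt1 lie farthest right.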

How the data were processed

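Each library was deposited as raw UMI counts per gene and barcode. Per the submitters' processing notes Cell Ranger 2.0.2 and mm10 were used, with no roles given; the deposited counts carry no normalization by the authors. The 10 genes and all lists were chosen with earlier results of these data known. Barcodes with at least 500 genes and at most 10% mitochondrial UMIs were kept, leaving totals of 32305146 (vehicle) and 28665692 (cisplatin) UMIs. No doublet caller was run, so doublets remain among the cells. UMIs were summed over cells and given as CPM with exact Poisson intervals, and ratios with exact conditional binomial intervals. Shares of cells have Clopper-Pearson intervals, unthinned and after thinning to 3000 UMIs. With 1 library per group no test was run and no p-value is given.

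A gene was called at 1.5-fold in CPM with at least 50 UMIs over both groups of cells. Median log2 ratios had 1 CPM added. Likeness was the Pearson correlation of log(1 + UMIs per 10000) among genes with a UMI in at least 5% of cells, and the 5 highest were named. Of each list, up to 4 further measured genes with the largest absolute log2 ratios could be named. Genes chosen for mention after their values were seen are Abcc3, Hmox1 and Slc7a11 in Hhex-positive cells, and Mt4. Gene positions are from GENCODE M21, in which 28339 of 28692 gene identifiers were found, and promoters from RefSeq. The alternatives included TMM and median-of-ratios scaling (edgeR 4.0.16 and DESeq2 1.42.0, size factors only). Other cell types were marked by at least 3 markers of 1 list. Python 3.11.15, numpy 2.4.6, scipy 1.17.1 and R 4.3.3 were used, and calling was tested on simulated data.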

Additional observations from a re-analysis of the deposited data

Results flagged for a closer look

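Mt2 went in opposite directions between the libraries in 2 splits of the cells, and the difference was not tested. Over all kept cells the CPM ratio of mitotic over other cells was 1.13 in vehicle and 0.929 in cisplatin. In cells without Hhex the ratios were 1.14 and 0.961. For stress over other cells without Hhex, Mt2 had a ratio of 1.08 in vehicle and 0.899 in cisplatin. All of these ratios lie within 1.5-fold, and mitotic and stress cells were deeper than the rest in both libraries.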

How the results depend on the processing

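No paired analysis was possible because each group has 1 library, and for the same reason none could be left out. Of 66 alternatives for counts of called genes, 55 stayed within 1.5 times the main count and 11 moved. A 2-fold rule gave 2 higher and 1 lower in Hhex-positive cells, 1 lower between libraries, and 0 higher and 1 lower without Hhex. For genes higher without Hhex, TMM and median-of-ratios scaling gave 3, and non-mitotic cells alone, a floor of 20 UMIs and no floor gave 2 each. Non-mitotic cells alone gave 1 lower between libraries. Median-of-ratios scaling called 1617 genes higher and 1876 lower over all genes, where the main ratio called 1088 and 2912, and TMM 1581 and 1920. Without Hhex, TMM called 1217 and 1726.

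Shares of cells followed the depth of thinning, and 15 of 16 moved. At 2000 UMIs the cisplatin shares were 1.00% for Abcg2, 76.0% for Mt1, 68.0% for Mt2 and 51.6% for Mt3, and the vehicle shares 54.4% for Mt1, 56.9% for Mt2 and 52.5% for Mt3. Without thinning they were 3.60%, 93.2%, 88.6% and 78.7% in cisplatin and 0.436%, 82.6%, 83.3% and 84.4% in vehicle. Depth limits Abcg2 in vehicle, with 16 UMIs, and Abcg2 and Atp7b in vehicle Hhex-positive cells, with 3 each. The settings without Pnoc or Isl1 cells, the centring on the median (also of the lists), equal cell weights, the Scgb1a1 limit and the removal of other cell types from Hhex-positive cells were chosen after seeing the data.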
